A study of Mus musculus with 7 samples.

Results

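The casein gene cluster of the mouse consists of Csn1s1, Csn2, Csn1s2a, Csn1s2b and Csn3, the 5 genes that encode the caseins of milk. These genes were taken by symbol from the RefSeq gene table, where they are 5 of 21887 protein-coding genes on the placed chromosomes, and were placed against the lamin-associated domains (LADs) of mouse embryonic fibroblasts. A LAD is a long stretch of chromatin that lies at the nuclear lamina, the protein meshwork under the nuclear envelope. The study used CUT&RUN, in which a nuclease is brought by an antibody to its target on chromatin and releases the DNA there, in mouse embryonic fibroblast lines named iMEF in the labels. Of 7 libraries, 2 were made with an antibody to Lamin B1, a structural protein of the lamina, 2 with control IgG, 1 each with H3K9me2 antibodies ab1220 and 39041, and 1 with an antibody to H3K14ac. The lines were derived independently from a single mouse colony, no treatment is given, and wild type appears only in the name of the domain list. The values below come from that list of 1437 domains, which is merged and holds positions without signal, so no value has a replicate error, the read depth is unknown and nothing below was tested.

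Caseins are the main proteins of milk and are made by the secretory epithelium of the mammary gland in late pregnancy and lactation. The products of Csn1s1, Csn2, Csn1s2a and Csn1s2b carry clusters of phosphorylated serine residues that bind calcium phosphate, whereas kappa-casein, the product of Csn3, coats and stabilises the casein micelle. Prolactin drives these genes through its receptor, the kinase JAK2 and the transcription factors STAT5A and STAT5B, together with glucocorticoids. The caseins belong to the secretory calcium-binding phosphoproteins, a family that spread by tandem duplication and also includes proteins of enamel, dentin, bone and saliva. LADs are generally poor in active genes, and genes of lineages other than that of the cell examined are often found in them.

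Promoters of the casein genes are shown first, because the STAT5 recognition pattern is the link between prolactin and these genes and because base composition at start sites is compared across the domain border further on. RefSeq promoter windows (build GRCm38.p6) were matched for 3 of the 5 members, Csn1s1, Csn2 and Csn1s2a. Each sequence below covers the 250 bases before the annotated start, read in the direction of transcription. Capitals mark the pattern TTCNNNGAA, recognised by STAT5, and a block of the form CCACAAAATTNGCATNTCAT that Csn1s1 and Csn2 have in common.
Csn1s1, chr5:87665958-87666207, plus strand: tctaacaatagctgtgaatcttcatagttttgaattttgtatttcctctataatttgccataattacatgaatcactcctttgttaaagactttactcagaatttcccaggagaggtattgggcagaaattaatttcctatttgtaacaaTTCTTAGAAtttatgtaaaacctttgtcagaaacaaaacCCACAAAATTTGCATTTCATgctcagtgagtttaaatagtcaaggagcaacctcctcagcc
Csn2, chr5:87699426-87699675, minus strand: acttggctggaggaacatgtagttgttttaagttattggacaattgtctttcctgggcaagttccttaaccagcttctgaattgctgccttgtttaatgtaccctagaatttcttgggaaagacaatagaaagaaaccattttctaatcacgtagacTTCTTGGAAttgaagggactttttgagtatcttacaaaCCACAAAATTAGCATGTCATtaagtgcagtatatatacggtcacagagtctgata
Csn1s2a, chr5:87774200-87774449, plus strand: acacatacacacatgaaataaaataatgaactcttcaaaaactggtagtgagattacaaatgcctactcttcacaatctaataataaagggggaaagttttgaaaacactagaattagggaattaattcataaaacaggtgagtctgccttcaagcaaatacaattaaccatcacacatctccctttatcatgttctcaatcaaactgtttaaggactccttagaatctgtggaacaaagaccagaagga

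All 3 casein windows held a STAT5 pattern when the 50 bases after the start were included. In Csn1s1 the match was TTCTTAGAA, from 100 to 92 bases before the start, and in Csn2 it was TTCTTGGAA, from 93 to 85 bases before the start. In Csn1s2a the only match, again TTCTTAGAA, lay from 21 to 29 bases after the annotated start, so no capitals appear in its sequence above. The pattern reads the same on both strands. It occurred in 1636 of 21263 windows of protein-coding genes (7.69%), 9.89% of those with a start in a LAD and 7.06% of those outside. A match is a description of letters and not evidence of binding.

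Csn1s1 and Csn2 also had a longer stretch in common. The longest ungapped alignment with at most 2 mismatches between their upstream sequences ran over 20 bases, of which 18 were identical, starting 61 bases before the start of Csn1s1 and 55 bases before that of Csn2. Capitals below mark identical bases.
Csn1s1: CCACAAAATTtGCATtTCAT
Csn2: CCACAAAATTaGCATgTCAT
In Csn1s1 this block includes the octamer ATTTGCAT, the recognition sequence of POU factors such as the product of Pou2f1, which 1.66% of all windows held on either strand. The Csn2 window had no exact octamer. The block CCACAAAATTNGCATNTCAT, searched on both strands, was found in 2 of the 21263 windows, those of Csn1s1 and Csn2 from which it was written. The TATA letters TATAAA were in neither strand of any of the 3 casein windows and in 12.6% of all windows, or 24.5% of those with a start in a LAD. Only these exact letters were searched, so TATA-like variants, such as tatatata in the Csn2 sequence above, were not counted. The longest such stretches of Csn1s2a with Csn1s1 and with Csn2 had 13 bases each, 11 of them identical.

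All 5 casein genes lay in a LAD, and all in the same one. This domain runs from 86869538 to 88534531 on chromosome 5 (mm10) and measures 1665 kb, and it covered 100% of the interval from the first base of Csn1s1 to the last base of Csn3. Among all 21130 protein-coding genes with a midpoint between the first and the last domain of their chromosome, 24.6% lay in a LAD, and on chromosome 5 the share was 17.6% of 1220. Each casein gene was also inside over its whole length, as were 22.5% of all protein-coding genes, while 26.0% overlapped a LAD at any base. Of all 48440 annotated genes, pseudogenes and RNA genes included, 32.9% had their midpoint in a LAD. The 5 members lie side by side and share their domain, so they count as 1 observation of the locus and not as 5 independent ones.

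Csn1s1, which encodes alpha-s1-casein, is the most centromere-proximal member. It occupies 87666208 to 87682578, starts 796.67 kb from the proximal border of the domain and ends 851.95 kb from the distal one. Csn2 encodes beta-casein, spans 87692619 to 87699429 and has 823.08 and 835.1 kb to the borders. Its midpoint fell at 49.639% of the length of the domain, so it sits at the middle of the LAD.

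Csn1s2a and Csn1s2b are the rodent alpha-s2-like genes, known earlier as gamma- and delta- or epsilon-casein. Csn1s2a extends from 87774450 to 87788798, with 904.91 kb of domain on its proximal side and 745.73 kb on its distal side. Csn1s2b extends from 87808121 to 87824421, with 938.58 and 710.11 kb. Csn3, the kappa-casein gene, is the most distal member, from 87925579 to 87932550. It had 1056 kb to the proximal border and 601.98 kb to the distal one, the shortest distance of any member. Domain lengths come in steps of about 2.5 kb, since all of them (100%) were within 125 bp of a multiple of that value. How precisely the borders were called is not known. With each border moved inward by 25 kb all 5 stayed inside, which their distances to the borders fixed in advance.

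**Figure D1:**
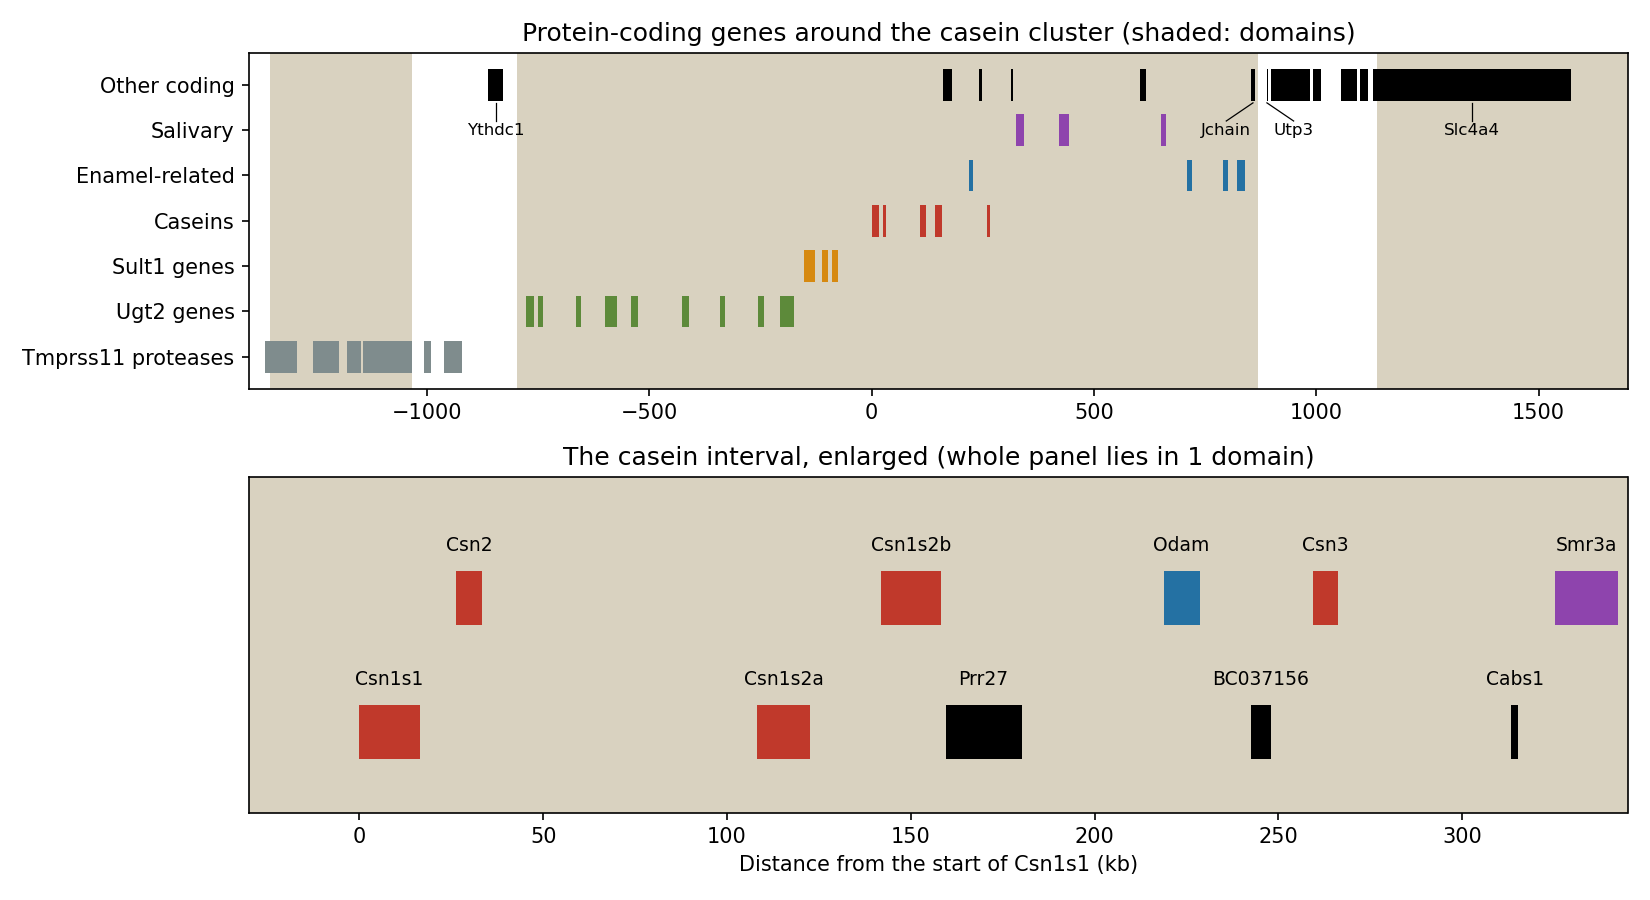
Protein-coding genes by group (rows, upper panel) and the casein interval enlarged (lower panel, 2 rows used only to separate labels), against distance in kb from the start of Csn1s1; shading marks LADs and white marks the gaps between them. The 5 caseins sit near the middle of a 1665 kb domain, with Ugt2 and Sult1 genes on the proximal side and salivary and enamel-related genes on the distal side.

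The casein genes were deeper in their domain than most LAD genes. Measured from the gene midpoint to the nearest border, the depth was 804.9 kb for Csn1s1, 826.5 kb for Csn2, 752.9 kb for Csn1s2a, 718.3 kb for Csn1s2b and 605.5 kb for Csn3, with a median of 752.9 kb. The 5207 protein-coding genes in LADs had a median depth of 307.7 kb, with quartiles of 106.4 and 721.4 kb. Csn2 was deeper than 78.9% of them and Csn3 deeper than 69.3%. The other 3 members ranged between these shares, so the cluster was in the deeper part of the distribution without being at its end. Neighbours in the middle of the domain shared this depth, such as Sult1e1 at 714.3 kb and Prr27 at 698.5 kb, both deeper than Csn3.

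**Figure D2:**
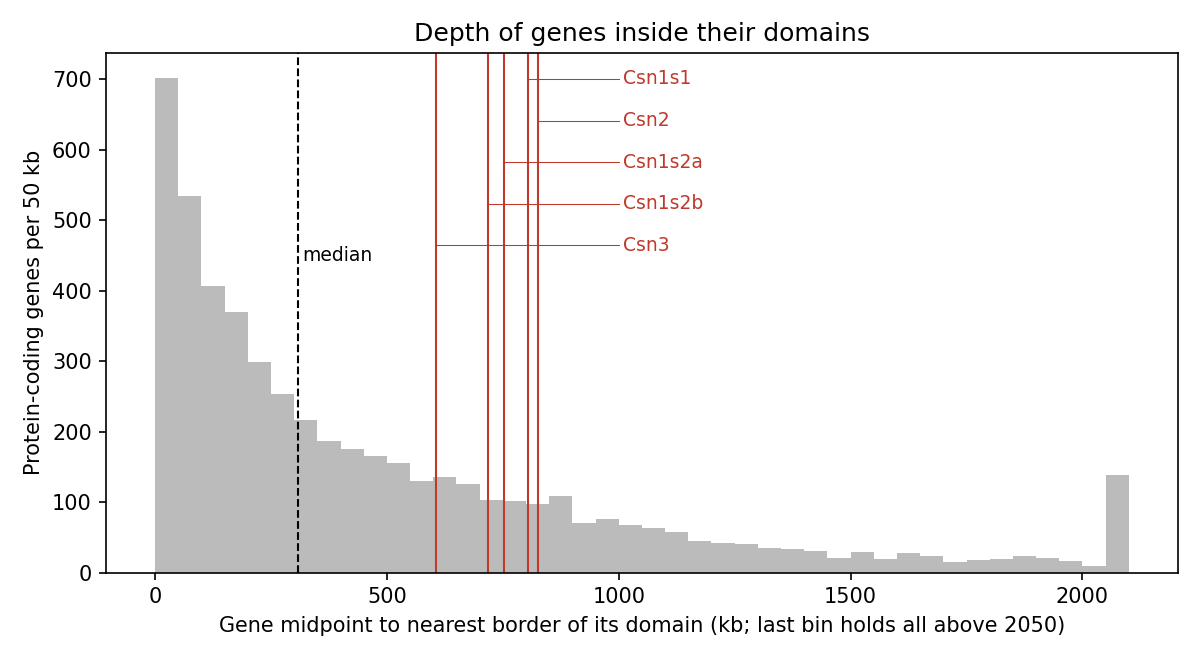
Number of protein-coding genes in LADs (vertical axis, per 50 kb) by the distance in kb from the gene midpoint to the nearest border of its domain, with all deeper genes in the last bar. The red lines of the 5 caseins, from 605.5 to 826.5 kb, are all to the right of the dashed median of 307.7 kb.

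Spacing within the cluster was uneven. The interval of 266.3 kb made up 16% of the domain, and the 5 genes themselves filled 22.8% of it. Csn1s1 and Csn2 are 10.04 kb apart and transcribed towards each other, and no annotated gene lies between them. From Csn2 to Csn1s2a there are 75.02 kb with 2 annotated pseudogenes, and since Csn2 is on the minus strand and Csn1s2a on the plus strand, their starts face each other across this stretch. Csn1s2a and Csn1s2b are 19.32 kb apart with nothing annotated between them. The widest interval, 101.2 kb, separates Csn1s2b from Csn3.

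The interval before Csn3 holds 3 other protein-coding genes, and all 3 were in the same LAD. They are Prr27, a proline-rich protein gene, Odam, an ameloblast gene of the phosphoprotein family, and BC037156, which the RefSeq table lists with the older name FDC-SP, a follicular dendritic cell secreted peptide. The midpoints of Prr27, Odam and BC037156 were 698.5, 644.6 and 623.1 kb from the nearest border. A long non-coding RNA gene, 1700066N21Rik, extends from 87908588 to 87979351 and so overlaps both BC037156 and Csn3.

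On the proximal side, the domain continued past the caseins through 2 families of conjugating enzymes. The 3 sulfotransferase genes Sult1b1, Sult1d1 and Sult1e1, whose products attach sulfate to phenols, catecholamines and oestrogens, were 656.2, 692.3 and 714.3 kb inside. All 10 Ugt2 genes, which encode glucuronosyltransferases of liver and olfactory epithelium, followed over 601.1 kb, from Ugt2a1 at 605.6 kb to Ugt2b34 at 28.82 kb inside. The border then lay 20.23 kb beyond Ugt2b34. The next protein-coding gene is Ythdc1, a reader of methylated adenosine in nuclear RNA, which was outside, 32.88 kb from the border at its nearer end.

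On the distal side the domain continued through genes of testis, saliva and enamel. Cabs1, a calcium-binding protein gene of spermatids, was 554.0 kb inside. The salivary genes Smr3a, Smr2 and Prol1 were 534.5, 436.7 and 211.5 kb inside. The enamel genes Amtn, Ambn and Enam, which encode amelotin, ameloblastin and enamelin, were 153.5, 72.27 and 37.52 kb inside and thus ever closer to the border. Jchain, which encodes the joining chain of polymeric immunoglobulins made by plasma cells, was the last gene, and ended 6.634 kb before the border. Utp3, a gene of ribosomal RNA processing, began 19.93 kb beyond it.

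In total, 25 of the 33 other protein-coding genes with a midpoint within 1 Mb of the cluster (75.8%) lay in a LAD, beside the 24.6% of all protein-coding genes. All 25 were in the casein domain. The 8 outside were Tmprss11b, Tmprss11e and Ythdc1 in the proximal gap of 237.5 kb and Utp3, Rufy3, Grsf1, Mob1b and Dck in the distal gap of 267.5 kb. Tmprss11b and Tmprss11e encode serine proteases of epithelia, Grsf1 a mitochondrial RNA-binding protein, Mob1b a cofactor of Hippo kinases and Dck deoxycytidine kinase. Within 500 kb of the cluster all 17 other genes were inside, and within 2 Mb 33 of 46. LADs covered 79.2% of the bases within 1 Mb of the cluster, 65.3% within 5 Mb and 45.7% of the span of chromosome 5.

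The neighbouring domains were less gene-rich. Beyond the proximal gap, a domain of 320 kb (86312039 to 86632037) held Tmprss11d, Tmprss11a, Tmprss11g and Tmprss11f, and the next one, of 2492 kb (83462048 to 85954539), held Epha5, an ephrin receptor gene, and the predicted gene Gm42163. Beyond the distal gap, a domain of 1370 kb (88802031 to 90172026) held Slc4a4, Gc, Npffr2 and Adamts3, of which Slc4a4 encodes a bicarbonate transporter and Gc the vitamin D-binding protein. The second distal domain, of 150 kb (91684522 to 91834521), held no protein-coding midpoint. In genes per Mb, the casein domain had 18.0, its proximal neighbour 12.5 and its distal neighbour 2.92.

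The casein domain was long and held many genes for a LAD. In length it ranked 259 among the 1437 domains, whose median was 445.0 kb. It held 30 protein-coding genes, and 29 domains held more, in 16 of which olfactory or vomeronasal receptor genes were the majority. Its 18.0 genes per Mb exceeded the average of 3.92 in LADs and also that of 12.3 between LADs. Among the 675 domains of at least 500 kb, the median was 1.92 genes per Mb (quartiles 0.852 and 4.31) and 34 domains (5.04%) were denser. Of those 34, 16 were mostly olfactory or vomeronasal receptor genes. Among the 150 other domains within a factor of 1.25 of its length, the median was 3 genes, the range 0 to 65, and 8 held 30 or more. In addition to the protein-coding genes, 26 other genes were annotated in it, of which 19 were pseudogenes, 12 of them between the first and the last Ugt2 gene, 1 a transcribed pseudogene, 3 long non-coding RNA genes, 2 snRNA genes and 1 a miRNA gene, Mir3969, which lies between Sult1e1 and Csn1s1.

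**Figure D3:**
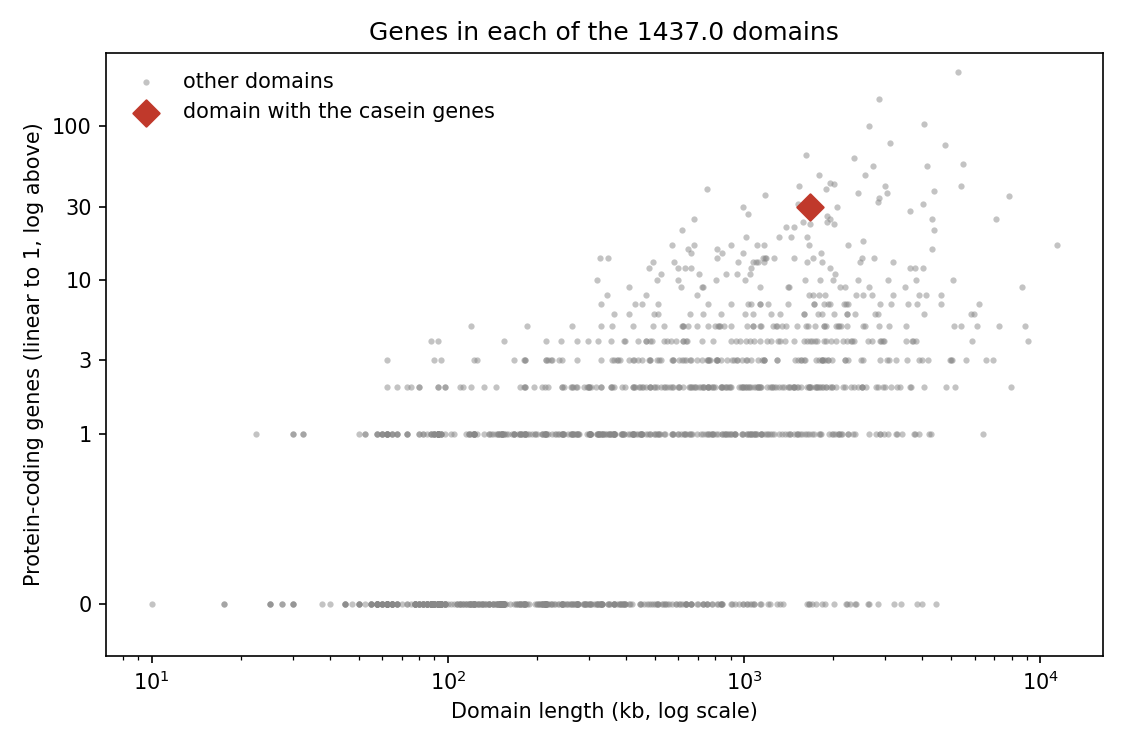
Number of protein-coding genes (vertical axis, linear to 1 and logarithmic above) against length in kb (horizontal logarithmic axis) for each of the 1437 LADs. The domain with the casein genes, the red diamond at 1665 kb and 30 genes, is in the upper part of the domains of its length.

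Base composition at start sites changed at the distal border of the domain. The windows of Csn1s1, Csn2 and Csn1s2a had a GC content of 35.3%, 38.7% and 32.3%, and 3.86%, 7.14% and 1.93% of the windows of protein-coding genes had a lower one. These 3 windows held 0, 2 and 0 CpG dinucleotides. The 28 windows in the casein domain, from 27 of its 30 protein-coding genes, ranged from 31.7% to 46.7% GC with a median of 38.9% and at most 4 CpG. Windows with a start in any LAD had a median of 45.7% (quartiles 38% and 53%), and those outside 58.7% (quartiles 52% and 66%). In the distal gap, the 7 windows of 5 genes ranged from 47.7% to 81.3% with a median of 67.7%. They lay above those of the casein domain by a narrow margin, 47.7% for a Rufy3 window against 46.7% for one of Sult1b1. Most windows outside any LAD also lie above 46.7%, since their lower quartile is 52%. In the proximal gap, Ythdc1 had 64% GC and Tmprss11b 36.7%. Tmprss11f, whose start lies in this gap 387 bp beyond the neighbouring LAD, had 42%. Tmprss11b and Tmprss11f were within the range of the casein domain. Of the neighbouring LADs, the proximal one had 3 windows with their start inside, from 39.7% to 44.3%, whereas the distal one had 2, both of Slc4a4, at 80% and 48.3%. The sequences of Jchain and Utp3, the genes on either side of the distal border, show the change, again over 250 bases before the start with no capitals.
Jchain, chr5:88527898-88528147, minus strand, inside the LAD: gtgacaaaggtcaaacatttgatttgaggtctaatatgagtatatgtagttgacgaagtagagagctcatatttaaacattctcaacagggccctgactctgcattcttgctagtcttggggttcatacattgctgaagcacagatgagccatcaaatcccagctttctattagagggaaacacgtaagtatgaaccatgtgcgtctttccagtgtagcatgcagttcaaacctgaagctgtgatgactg
Utp3, chr5:88554212-88554461, plus strand, outside the LAD: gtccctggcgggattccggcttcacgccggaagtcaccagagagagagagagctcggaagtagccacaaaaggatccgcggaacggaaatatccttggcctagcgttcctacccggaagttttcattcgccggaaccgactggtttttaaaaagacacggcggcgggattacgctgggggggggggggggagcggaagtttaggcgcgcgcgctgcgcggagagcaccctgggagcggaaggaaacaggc
The whole window of Jchain had 42.3% GC and 3 CpG, and that of Utp3 62% GC and 30 CpG. Over all windows, GC content was lower for starts in LADs than for starts outside, whereas single windows of this region went against it in both directions. The part of base composition in the placement was not tested.

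**Figure D4:**
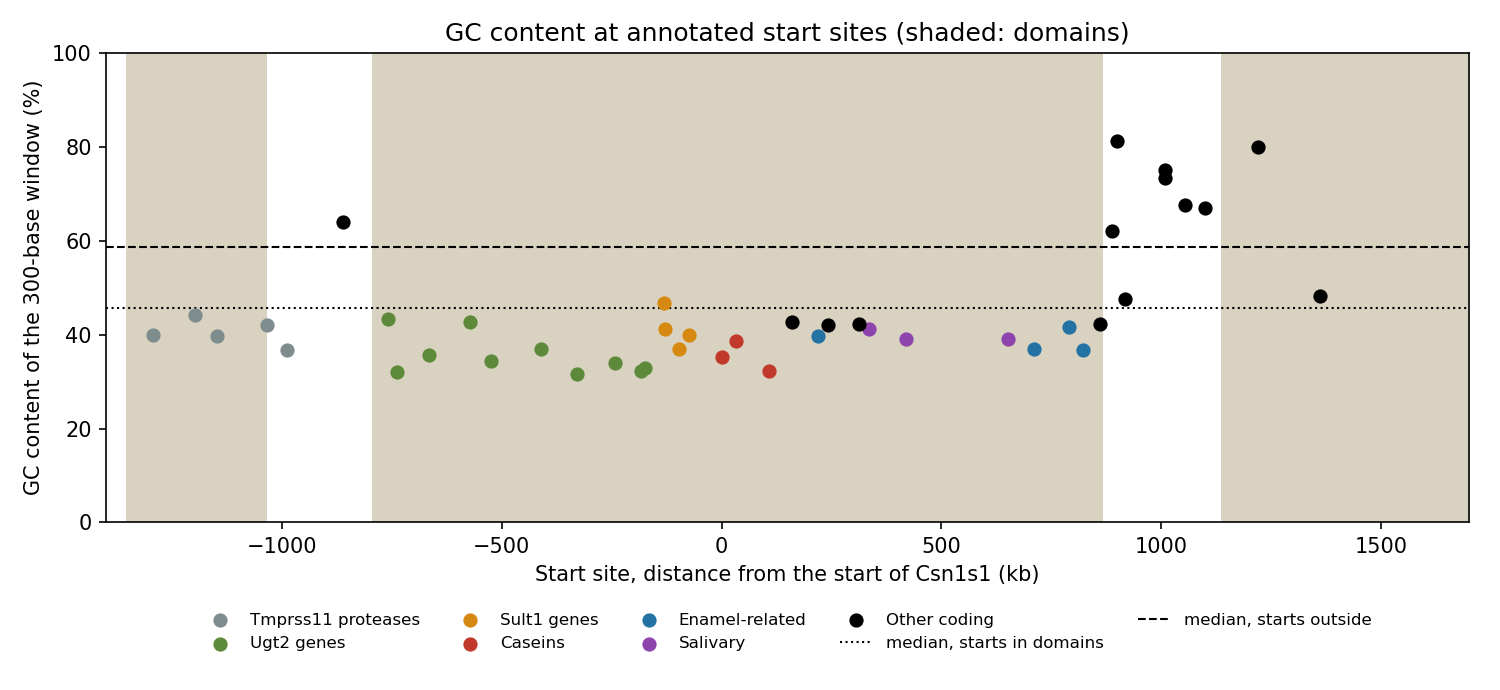
GC content in percent of the 300-base window around each annotated start of a protein-coding gene (points, coloured by gene group) against distance in kb from the start of Csn1s1, with LADs shaded and the medians of all windows inside (45.7%, dotted) and outside LADs (58.7%, dashed). Windows in the casein domain range from 31.7% to 46.7%, and those in the distal gap from 47.7% to 81.3%.

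The STAT5 pattern was present in 5 of the 28 windows of the casein domain. They were the 3 casein windows and those of BC037156 and Cabs1, the protein-coding genes before and after Csn3. Without the caseins, 2 of the 25 windows of the domain (8.0%) held the pattern, near the 7.69% of all windows and the 9.89% of windows with a start in a LAD.

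The listed genes of the phosphoprotein family lie at 2 loci of chromosome 5, and those near the caseins were in the casein domain while those of the other locus were partly in a LAD. The list of 20 names matched 19 genes, since Muc10 is an older name of Prol1, and 16 of the 19 (84.2%) lay in a LAD, at a median of 211.5 kb inside. All protein-coding genes had a median of -395.1 kb, where a negative distance is outside a LAD, with 24.6% in LADs. Of the 16, however, 13 including the 5 caseins were in the casein domain, which is again 1 observation. Outside that domain 3 of 6 genes (50%) lay in a LAD, with a median of -4.194 kb, and all 6 belong to the second locus. This locus holds the genes of dentin and bone and Sparcl1, a gene related to the ancestor of the family, and here a LAD of 182.5 kb (104131983 to 104314481) covered only the middle of the row. Dspp (dentin sialophosphoprotein), Dmp1 (dentin matrix protein) and Ibsp (bone sialoprotein) were inside, with Ibsp ending 3.01 kb before the distal border. Mepe, a bone matrix phosphoglycoprotein gene, started 10.8 kb beyond that border and Spp1, the osteopontin gene, 121 kb beyond it. Sparcl1 ended 17.9 kb before the proximal border. The gap after this LAD measures 237.5 kb, and with domains joined across gaps of at most 250 kb Mepe and Spp1 fell inside, so that 5 of the 6 genes were in a LAD.

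Other milk genes, like most protein-coding genes, were outside LADs. Of 20 names, 18 had a midpoint in a chromosome span, and Wap and Fasn did not. One of the 18, Spp1, is also in the phosphoprotein list. Only Glycam1 and Pthlh of the 18 (11.1%) lay in a LAD, at 53.06 and 81.38 kb inside. Glycam1 encodes a mucin-like milk protein, and Pthlh a calcium-mobilising hormone made by the lactating gland. Among those outside, Lalba, the alpha-lactalbumin gene and like the caseins a gene of lactating epithelium, was at -2241 kb from the nearest border. Btn1a1 (butyrophilin) was at -213.2 kb, Xdh (xanthine dehydrogenase of the fat globule) at -73.29 kb and Pigr, the receptor that carries antibodies into milk, at -12.38 kb. The list had a median of -358.5 kb, near the -395.1 kb of all protein-coding genes, and its share of 11.1% was under the background of 24.6%.

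Regulators of casein expression were also mostly outside. Of 19 genes with a midpoint in a span (Insr had none), Prlr and Pgr (10.5%) lay in LADs, beside 24.6% of all protein-coding genes, and the median of the list was -896.4 kb, beside -395.1 kb. Prlr, the prolactin receptor gene, was 132.9 kb inside a LAD of 1207 kb on chromosome 15 (9188653 to 10396149), and Pgr, the progesterone receptor gene, was 75.3 kb inside one of 865 kb on chromosome 9 (8144060 to 9009056). Stat5a and Stat5b, which act downstream of the prolactin receptor, were at -7042 and -6989 kb, and Jak2 at -971.0 kb. The mammary transcription factor genes Elf5 and Gata3 were at -1811 and -554.9 kb, and Prl itself, the pituitary hormone gene, at -3813 kb.

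**Figure D5:**
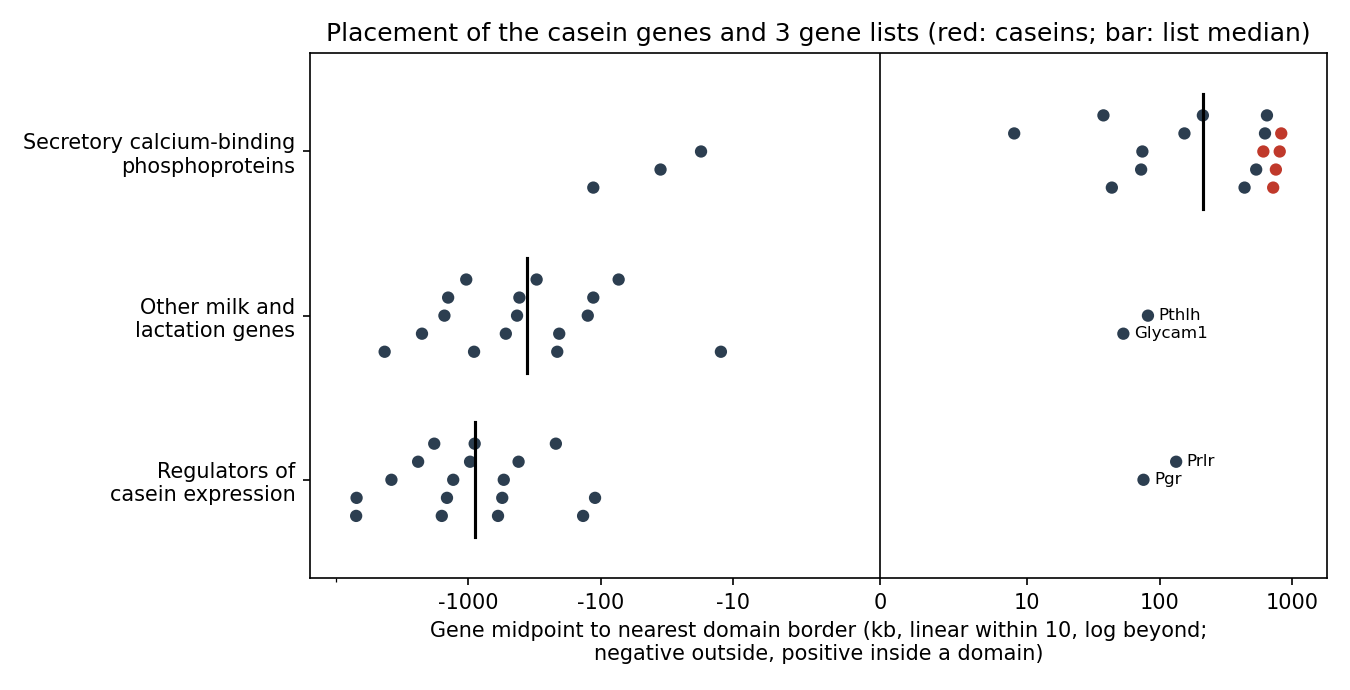
Signed distance in kb from gene midpoint to the nearest LAD border (horizontal axis, linear within 10 kb and logarithmic beyond, positive inside) for the 19 phosphoprotein genes, 18 milk genes and 19 regulators; points are genes (Spp1 is in both the first and the second list), red points the caseins, and bars the medians of 211.5, -358.5 and -896.4 kb. Glycam1 and Pthlh among the milk genes and Prlr and Pgr among the regulators are the points inside LADs.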

How the data were processed

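CUT&RUN reads of the iMEF lines were aligned with Bowtie2 to mm10, per the submitters' processing notes. The authors deposited 1 BED list of 1437 domains, whose values are start and end positions in base pairs, with a score of 0 throughout. The domain caller, its threshold and the use of IgG or spike-in are not given in the sources used here. Wild type and merged come from the name of the list, which was read as the pooled result of the 2 Lamin B1 libraries. The smallest gap was 52499 bp, so shorter gaps may have been joined, which would lengthen domains.

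Positions are counted from 1. Genes came from the RefSeq table of GRCm38.p6, the build of mm10, and a gene was placed by its midpoint among the 21130 protein-coding genes between the first and last domain of a chromosome. The genes named are the members, their neighbours within 1 Mb and 3 lists. The genes on the second phosphoprotein locus come from those lists. Members and lists were chosen with earlier results of these data known. Motif searches used the RefSeq promoter windows of 300 bases. Python 3.11.15 and pandas 2.3.3 were used. The remaining libraries were not analysed here.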

Additional observations from a re-analysis of the deposited data

How the results depend on the processing

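Under the alternatives to the choice of domains, borders and gene position, all 5 casein genes stayed in a LAD and 100% of their interval stayed covered. The length of the domain and the distances of the genes to its borders fixed this outcome in advance. Of 34 alternatives over 6 results, those for the casein genes and their interval included, 33 left the count within 1.5 times. The exception was counting all annotated genes within 1 Mb, which gave 52 of 63 in place of 25 of 33 and includes more genes by construction. With every border moved inward by 25 kb, 24 of the 33 were inside, without Jchain. With every border moved outward by 25 kb, 26 were inside, with Utp3 added. Joining across gaps of at most 250 kb, which merges the casein domain with its proximal neighbour, gave 28 of the 33. The same joining moved the phosphoprotein list from 16 to 18 of 19 and its second locus from 3 to 5 of 6 genes, through Mepe and Spp1. The counts of 2 milk and 2 regulator genes are small. Any overlap, through Pigr, or joining, through Spp1, moved the milk count to 3. No paired analysis was possible because the 2 Lamin B1 libraries are merged in 1 list, so a fit without either library could not be made. The depth behind each domain is unknown.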

Other observations

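The orientation of genes in the casein domain, given by RefSeq for 27 of its 30 protein-coding genes, changed along its length. Of the 13 Ugt2 and Sult1 genes on the proximal side, 12 were on the minus strand and only Ugt2b35 was on the plus strand. Of the 11 other genes with a known strand outside the casein group, 10 were on the plus strand and only Jchain, the last gene before the distal border, was on the minus strand. Csn1s1 and Csn1s2a were on the plus strand and Csn2 on the minus strand.

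At the outer end of each adjoining gap, 1 protein-coding gene reached across the border of the neighbouring domain. Tmprss11f, the last gene of the proximal neighbour, extends 387 bp past the border of that domain, and its annotated start lies on the outer side. This overhang is less than the 2.5 kb step of the domain lengths. Slc4a4 begins 8.173 kb before the distal neighbour and lies in it over 98.2% of its length. No protein-coding gene crossed either border of the casein domain.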
